A study of Mus musculus with 24 samples.

Results

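Ddit3, Atf4, Atf5, Trib3, Chac1, Asns, Sesn2, Gdf15, Psat1 and Phgdh are genes of the integrated stress response, and they were followed here across explants of the mouse organ of Corti (OC), the sensory epithelium of the cochlea with its hair cells (HCs). They were taken by name, as the rows of the count table whose Entrez identifiers map to these symbols. They made up 10 of the 24454 genes in the table and were chosen with earlier results of these data known. All 10 passed the filter on low counts, which kept 16317 genes, so every one of them was tested. The OCs came from 5-day-old C57BL/6N mice of both sexes, were kept in medium for 24 h and were then held for a further 6 or 24 h without drugs (CTRL), with 50 µM gentamicin (GM), with 10 µM pioglitazone (PIO) or with both drugs at these doses (PIO+GM). Gentamicin is an aminoglycoside antibiotic that damages HCs, and pioglitazone, a glitazone used against diabetes, activates PPAR-γ. Each of these 8 groups had 3 libraries, 24 in all, and 6 OCs were used per condition. Every group thus shared the preculture and a medium with serum and penicillin, and uncultured tissue was not analysed here. The labels number the triplicates but do not say whether they came from separate litters or dissections, so p-values measure the spread between these libraries.

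In the integrated stress response, kinases that sense unfolded proteins, scarce amino acids, viral RNA or scarce heme phosphorylate the translation factor eIF2α, which slows protein synthesis in general while the mRNA of the transcription factor ATF4 is translated more. ATF4 then raises a programme of genes for amino acid synthesis, amino acid uptake and the charging of transfer RNAs, along with further transcription factors and feedback inhibitors. mRNA levels report only the transcriptional end of this pathway, since neither eIF2α phosphorylation nor ATF4 protein is seen by RNA sequencing.

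The libraries held 7211357 to 15548856 counts on genes, with a median of 12538495, and levels are given as CPM, each count scaled to the size of its library after adjustment by a TMM factor. At these depths 3 counts corresponded to 0.193 to 0.405 CPM, a limit that covers counting error only. The library with the lowest total, PIO+GM 6 h replicate 3, stood apart from its group: it was the lowest of its 3 libraries for all 10 genes, with a mean deviation of -0.74 log2 units from the group mean. The same library had the highest summed level of olfactory and vomeronasal receptor transcripts of any library, 270.2 CPM, and, among the 6 h libraries, the lowest sum of 5 Schwann cell markers, 289 CPM. PIO 24 h replicate 1 and PIO+GM 24 h replicate 1 were the lowest of their groups for 9 of the 10 genes each. Markers of the labelled tissue were present throughout, as the 9 HC markers summed to 431 to 1005 CPM and the 9 supporting cell markers to 1748 to 4920 CPM, with no marker at 0 in any library. In such bulk libraries, fewer cells of a type and less RNA per cell cannot be told apart.

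The strongest pattern among the 10 genes was time in culture. Between 6 and 24 h of treatment, 9 of the 10 were lower at 24 h in CTRL, 9 in GM, 8 in PIO and 9 in PIO+GM, and none was higher (edgeR quasi-likelihood test, adjusted p under 0.05 over all genes). Over all 16317 genes the percentage called lower at 24 h was 13.2 in CTRL, 11.7 in GM, 15.8 in PIO and 17 in PIO+GM. The median log2 fold change of the 10 genes was -1.86, -1.79, -1.73 and -1.51 in that order, and over all genes it was 0.03, 0.02, 0.01 and 0.01. The fall was present in drug-free explants and in each drug arm. These 4 comparisons use different libraries but share a fit and its estimate of the spread, so the tests are not independent. With all libraries in the fit, the estimates of Asns, which encodes the enzyme that makes asparagine, were the lowest in each arm. Chac1 was lower on leaving out single libraries, as in PIO+GM without 6 h replicate 3. In CTRL without 24 h replicate 1 Chac1 was at -4.37, while no setting took Asns in CTRL below -3.64. Gdf15 was the gene that passed the test in no arm. Without PIO+GM 6 h replicate 3, the count in PIO+GM was 9 again and the median -1.78, with log2 fold changes of -1.79 for Ddit3, -1.66 for Atf4, -1.68 for Atf5, -2.78 for Trib3, -3.62 for Chac1, -3.50 for Asns, -2.13 for Psat1, -0.87 for Phgdh, -1.42 for Sesn2 and -1.77 for Gdf15. Over both times pooled across treatments, the lowest of 12 libraries at 6 h lay above the highest of 12 at 24 h for 6 of the genes (Ddit3, Atf4, Atf5, Trib3, Asns and Psat1), and for 9 once PIO+GM 6 h replicate 3 was left out. Over all genes tested, 6.37% separated in this direction, and 7.67% without that library.

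**Figure D1:**
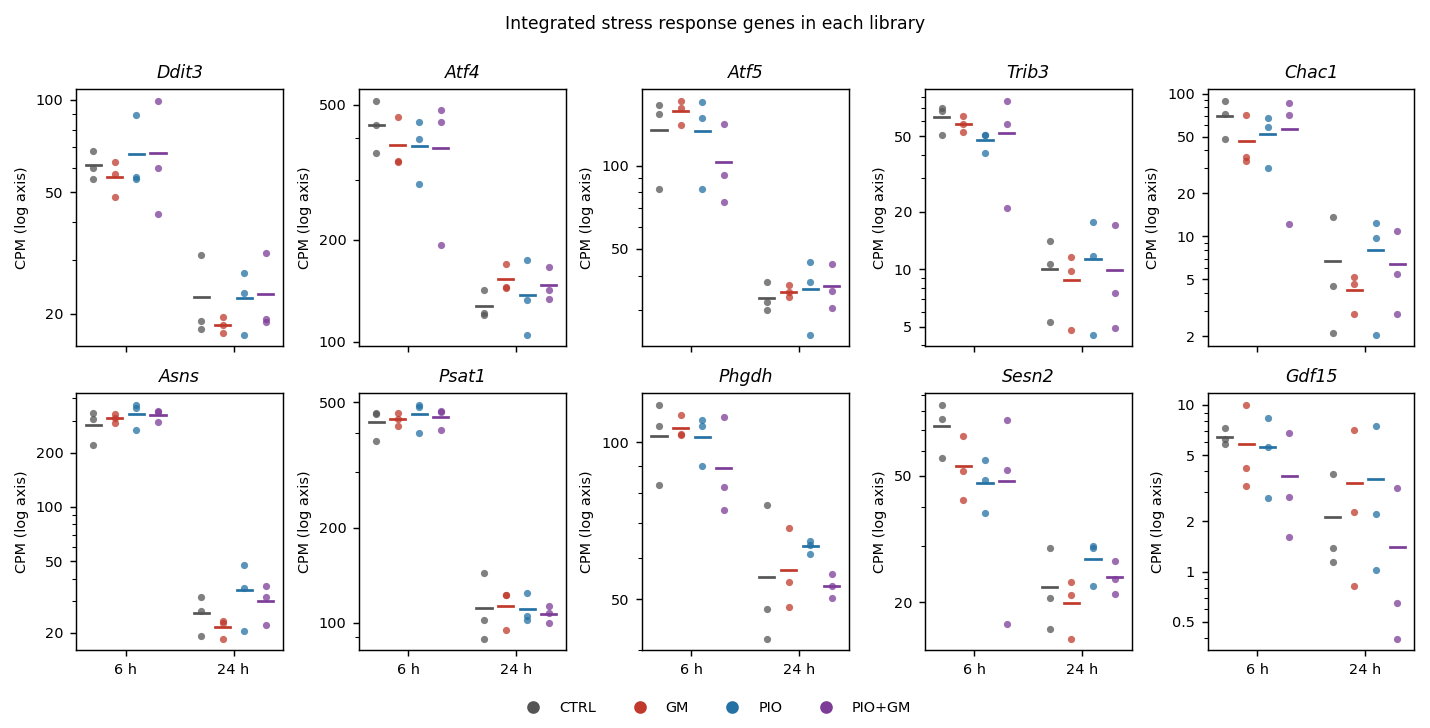
CPM of the 10 genes in each of the 24 libraries, on log axes, with 1 point per library, a line at each group mean and the treatments side by side at 6 h and at 24 h. For Asns the 6 h points lie between 219.7 and 368 CPM and the 24 h points between 18.5 and 47.5, whereas for Gdf15 the times overlap.

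The genes lie apart from each other on the chromosomes (coordinates of GRCm38.p6, the build that mm10 in the submitters' processing notes names). Trib3 and Chac1 share chromosome 2 but not a neighbourhood. Atf5 shares 82 of its 1993 exon bases with exons of Il4i1 and Nup62 on the opposite strand, and since the use of strand in counting is not stated, a small part of its reads could belong to either. Of the 76-base stretches of the Phgdh transcript, 46.9% occur unchanged in processed pseudogenes such as Gm7901, so its counts are uncertain where reads with several matches were involved. Of the stretches of Atf5, 0.574% occur in Il4i1 and Nup62, and none was found in another gene for the other 8 genes.

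ATF4 pairs with C/EBP family proteins on composite promoter elements, so the 250 bases before the annotated start of each gene (RefSeq, GRCm38.p6, all 10 matched) were searched on both strands for the letters TGATGNAA, which spell the core of that element. They occurred before 2 of the 10 genes, Asns and Chac1, and in 3.53% of 27025 mouse promoter windows of the same length. A looser form, TGNNGCAAT, chosen after the sequences had been seen, occurred before Trib3, Chac1 and Psat1, and in 1.83% of all windows. One site can satisfy both forms, but no site in the 10 windows did. The 4 windows are shown because they hold a match, those of Trib3 and Psat1 to the looser form only. A link of the letters to the falls was not tested. Matched letters are in capitals, read 5′ to 3′ toward the start on the gene's own strand.
Asns, chr6:7693210-7693459, minus strand: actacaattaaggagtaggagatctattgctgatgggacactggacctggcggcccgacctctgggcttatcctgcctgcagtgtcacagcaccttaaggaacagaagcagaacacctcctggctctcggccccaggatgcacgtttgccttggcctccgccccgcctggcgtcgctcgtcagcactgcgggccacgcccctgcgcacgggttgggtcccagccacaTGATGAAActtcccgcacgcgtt
Chac1, chr2:119350992-119351241, plus strand: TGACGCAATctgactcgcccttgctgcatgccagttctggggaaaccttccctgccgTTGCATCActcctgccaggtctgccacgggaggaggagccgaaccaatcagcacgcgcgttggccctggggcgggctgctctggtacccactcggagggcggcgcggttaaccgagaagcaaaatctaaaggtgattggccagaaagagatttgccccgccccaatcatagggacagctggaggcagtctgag
Trib3, chr2:152344061-152344310, minus strand: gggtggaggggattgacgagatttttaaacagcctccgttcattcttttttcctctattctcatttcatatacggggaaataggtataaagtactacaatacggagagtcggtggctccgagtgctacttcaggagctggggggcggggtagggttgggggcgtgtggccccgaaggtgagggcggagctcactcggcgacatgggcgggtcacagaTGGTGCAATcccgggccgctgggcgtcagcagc
Psat1, chr19:15925060-15925309, minus strand: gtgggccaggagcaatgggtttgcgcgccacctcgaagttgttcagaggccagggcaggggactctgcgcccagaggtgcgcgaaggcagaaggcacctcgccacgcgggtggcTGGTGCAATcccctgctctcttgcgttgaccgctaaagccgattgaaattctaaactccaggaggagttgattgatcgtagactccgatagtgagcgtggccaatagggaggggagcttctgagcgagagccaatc
Counted from the start, with -1 the base just before it, the match begins at -23 in Asns, at -33 in Trib3 and at -136 in Psat1, while Chac1 has one on the opposite strand from -193 and another from -250, the outer edge of the window. Windows of the other 6 genes, Ddit3 and Atf4 among them, lack these letters, which says nothing of elements elsewhere. A match in letters is a description, not a bound site.

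The 3 enzymes of amino acid synthesis all fell in all 4 arms. Asns (chr6:7675165-7693209, minus strand) makes asparagine from aspartate and glutamine. In the 6 h libraries, Asns was at 306, 219.7 and 333 CPM in CTRL, 329, 313 and 291 in GM, 355, 368 and 266 in PIO and 340.2, 337 and 296 in PIO+GM. At 24 h the Asns values were 31.6, 26.5 and 19.2 CPM in CTRL, 22.6, 23.3 and 18.5 in GM, 20.5, 35.4 and 47.5 in PIO and 22.0, 31.6 and 36.3 in PIO+GM. Every 6 h library was above every 24 h library, and the treatments overlapped within each time. Mean Asns in CTRL went from 286 ± 59.2 to 25.8 ± 6.25 CPM (SD, n = 3). The log2 fold changes at 24 h against 6 h, with their standard errors, were -3.47 ± 0.27 in CTRL, -3.86 ± 0.27 in GM, -3.26 ± 0.26 in PIO and -3.44 ± 0.27 in PIO+GM, that is 11.1, 14.5, 9.57 and 10.8 times lower, with adjusted p from edgeR of 4.84e-07, 1.20e-07, 6.97e-07 and 2.41e-07.

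Psat1 and Phgdh catalyse neighbouring steps of serine synthesis from a glycolytic intermediate. Psat1 at 6 h was at 459, 375 and 461 CPM in CTRL, 442, 460.3 and 419.6 in GM, 484, 489.9 and 400.2 in PIO and 468, 464 and 409 in PIO+GM. By 24 h they were 102, 144 and 88.9 CPM in CTRL, 94.5, 122 and 122 in GM, 102, 105 and 124 in PIO and 99.8, 107 and 113 in PIO+GM. Psat1 (chr19:15905123-15925059, minus strand) was the least scattered of the 10 genes at 6 h, and again no 6 h library reached the 24 h values. Its log2 fold changes were -1.95 ± 0.16 in CTRL, -1.96 ± 0.16 in GM, -2.05 ± 0.16 in PIO and -2.07 ± 0.16 in PIO+GM, or 3.87, 3.90, 4.15 and 4.19 times lower (edgeR adjusted p 4.84e-07, 3.97e-07, 5.34e-07 and 2.41e-07). Phgdh (chr3:98313171-98339969, minus strand), the first and committed step of the pathway, moved less. Phgdh at 6 h was at 107, 82.8 and 118 CPM in CTRL, 104, 103 and 113 in GM, 107, 90.0 and 110.0 in PIO and 112, 82.0 and 74.0 in PIO+GM. By 24 h they were 42.0, 75.7 and 47.9 CPM in CTRL, 48.3, 68.4 and 53.9 in GM, 64.7, 61.1 and 63.5 in PIO and 55.7, 50.3 and 53.03 in PIO+GM. Both times stayed separate within each treatment, although PIO+GM 6 h replicate 3 lay below the highest CTRL 24 h library. The log2 fold changes of Phgdh were -0.89 ± 0.19 in CTRL, -0.91 ± 0.19 in GM, -0.70 ± 0.19 in PIO and -0.75 ± 0.19 in PIO+GM (edgeR adjusted p 0.00198, 0.00207, 0.0109 and 0.00548), the smallest of the 9 genes that passed in CTRL.

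The 3 transcription factors fell together. Atf4 (chr15:80255184-80257545, plus strand), whose protein drives the programme, was the most abundant of the 10 transcripts per length at both times. In the 6 h libraries, Atf4 was at 359, 514 and 436 CPM in CTRL, 340.2, 461 and 339.8 in GM, 397, 446 and 292 in PIO and 483, 444 and 192 in PIO+GM. At 24 h the Atf4 values were 142, 119.7 and 121 CPM in CTRL, 145, 144 and 169 in GM, 105, 133 and 175 in PIO and 134, 142 and 166 in PIO+GM. PIO+GM 6 h replicate 3 was the lowest of the 6 h values, and even it stayed above every 24 h value. The log2 fold changes of Atf4 were -1.77 ± 0.26 in CTRL, -1.31 ± 0.26 in GM, -1.46 ± 0.26 in PIO and -1.34 ± 0.26 in PIO+GM, or 3.42, 2.49, 2.75 and 2.53 times lower (edgeR adjusted p 9.36e-05, 0.00123, 6.08e-04 and 7.50e-04).

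Atf5 (chr7:44812256-44816658, minus strand) is a related factor that is also translated when eIF2α is phosphorylated. The libraries of 6 h held Atf5 at 166, 82.5 and 154 CPM in CTRL, 172, 140.2 and 162 in GM, 169, 82.3 and 149 in PIO and 142, 92.4 and 74.1 in PIO+GM. The 24 h values were 37.8, 30.0 and 32.1 CPM in CTRL, 36.9, 33.3 and 34.7 in GM, 24.5, 38.0 and 44.7 in PIO and 30.6, 44.2 and 35.2 in PIO+GM. At 6 h the second library of CTRL and of PIO was at 82.5 and 82.3 CPM, well under the other libraries of those groups, and PIO+GM held the lowest value. The log2 fold changes of Atf5 were -2.01 ± 0.29 in CTRL, -2.17 ± 0.29 in GM, -1.90 ± 0.29 in PIO and -1.49 ± 0.29 in PIO+GM (edgeR adjusted p 7.84e-05, 4.52e-05, 1.92e-04 and 7.75e-04).

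Ddit3 (chr10:127290793-127296291, plus strand) encodes CHOP, the factor linked to cell death under lasting endoplasmic reticulum stress. Ddit3 at 6 h was at 55.1, 60.1 and 68.1 CPM in CTRL, 48.2, 57.3 and 62.7 in GM, 55.8, 89.0 and 55.2 in PIO and 59.9, 99.3 and 42.2 in PIO+GM. By 24 h they were 31.2, 18.9 and 17.9 CPM in CTRL, 19.5, 17.3 and 18.4 in GM, 17.1, 27.2 and 23.4 in PIO and 18.8, 31.6 and 19.2 in PIO+GM. The highest 6 h values were those of PIO replicate 2 and PIO+GM replicate 2, and the groups kept apart from their 24 h counterparts. Its log2 fold changes were close to each other in the 4 arms, -1.43 ± 0.29 in CTRL, -1.61 ± 0.29 in GM, -1.56 ± 0.29 in PIO and -1.54 ± 0.29 in PIO+GM (edgeR adjusted p 0.00120, 6.02e-04, 7.88e-04 and 6.04e-04).

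The products of Trib3 and Sesn2 act as brakes. Trib3 (chr2:152337425-152344060, minus strand) is a pseudokinase that binds ATF4 and CHOP and restrains them. Trib3 at 6 h was at 50.5, 69.8 and 67.5 CPM in CTRL, 52.6, 63.3 and 57.6 in GM, 50.9, 50.7 and 41.0 in PIO and 76.5, 58.1 and 20.9 in PIO+GM. By 24 h they were 14.1, 10.6 and 5.32 CPM in CTRL, 9.83, 11.7 and 4.80 in GM, 4.56, 17.7 and 11.7 in PIO and 4.96, 17.2 and 7.52 in PIO+GM. The log2 fold changes of Trib3 were -2.64 ± 0.51 in CTRL, -2.72 ± 0.51 in GM, -2.07 ± 0.50 in PIO and -2.40 ± 0.51 in PIO+GM, or 6.23, 6.60, 4.19 and 5.27 times lower (edgeR adjusted p 8.85e-04, 8.76e-04, 0.00517 and 0.00149). Without PIO+GM 24 h replicate 2 the fold in PIO+GM was 8.34 times. Sesn2 (chr4:132492804-132510456, minus strand) is a leucine-binding protein that limits mTORC1 signalling. The libraries of 6 h held Sesn2 at 56.9, 75.7 and 83.8 CPM in CTRL, 51.9, 67.0 and 42.1 in GM, 56.3, 38.2 and 48.5 in PIO and 75.1, 52.3 and 17.0 in PIO+GM. The 24 h values were 29.7, 20.6 and 16.5 CPM in CTRL, 23.2, 21.0 and 15.3 in GM, 22.5, 30.1 and 29.6 in PIO and 21.2, 26.9 and 23.6 in PIO+GM. The log2 fold changes of Sesn2 were -1.70 ± 0.35 in CTRL, -1.44 ± 0.35 in GM, -0.80 ± 0.34 in PIO and -1.02 ± 0.35 in PIO+GM, and adjusted p from edgeR were 0.00149, 0.00574, 0.0857 and 0.0290, so the PIO arm did not pass. In PIO+GM the groups overlapped through replicate 3 at 6 h, without which the estimate was -1.42 with an adjusted p of 5.02e-04. The call was lost on leaving out any of the other 5 libraries in turn, with adjusted p of 0.203 and 0.0881 without 6 h replicates 1 and 2, and 0.0976, 0.0511 and 0.0738 without 24 h replicates 1, 2 and 3. The difference between PIO and CTRL in the change of Sesn2 with time was 0.90 (95% confidence interval -0.12 to 1.91, edgeR adjusted p 0.898).

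Chac1 (chr2:119351242-119354326, plus strand) encodes an enzyme that breaks down glutathione, the main thiol antioxidant of cells, and is a known target of ATF4. The libraries of 6 h held Chac1 at 47.9, 89.1 and 72.1 CPM in CTRL, 36.1, 70.7 and 33.8 in GM, 58.3, 68.0 and 29.9 in PIO and 85.7, 70.3 and 12.3 in PIO+GM. The 24 h values were 13.6, 4.49 and 2.09 CPM in CTRL, 4.63, 5.20 and 2.87 in GM, 2.05, 9.69 and 12.5 in PIO and 2.84, 10.8 and 5.47 in PIO+GM. Within each treatment the times stayed separate, but PIO+GM 6 h replicate 3, at 12.3 CPM, lay below CTRL 24 h replicate 1 at 13.6. Its log2 fold changes were -3.38 ± 0.73 in CTRL, -3.47 ± 0.74 in GM, -2.69 ± 0.70 in PIO and -3.15 ± 0.72 in PIO+GM, or 10.4, 11.1, 6.45 and 8.86 times lower (edgeR adjusted p 0.00206, 0.00225, 0.00850 and 0.00264). The spread was wide, and the CTRL fold was 20.7 times without CTRL 24 h replicate 1 and the PIO+GM fold 13.6 times without PIO+GM 24 h replicate 2.

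Gdf15 (chr8:70629393-70632470, minus strand), a secreted hormone of the TGF-β family that signals tissue stress to the brain, had the lowest counts, 6 to 147 per library. In the 6 h libraries, Gdf15 was at 7.31, 5.82 and 6.22 CPM in CTRL, 3.28, 4.21 and 9.99 in GM, 5.61, 2.75 and 8.31 in PIO and 6.77, 2.81 and 1.62 in PIO+GM. At 24 h the Gdf15 values were 1.14, 3.83 and 1.40 CPM in CTRL, 0.826, 7.09 and 2.27 in GM, 1.03, 7.48 and 2.22 in PIO and 0.397, 3.18 and 0.654 in PIO+GM. All 4 estimates were below 0, at -1.57 ± 0.82 in CTRL, -0.77 ± 0.79 in GM, -0.65 ± 0.79 in PIO and -1.43 ± 0.86 in PIO+GM, with adjusted p from edgeR of 0.161, 0.499, 0.562 and 0.200. The 95% interval in CTRL ran from -3.27 to 0.13, which spans no change as well as a fall of 3 log2 units. Single libraries moved these estimates in every arm. In CTRL the estimate was -2.34 without 24 h replicate 2, in GM -0.12 without 6 h replicate 3 and -1.89 without 24 h replicate 2, and in PIO -1.79 without 24 h replicate 2. In PIO+GM the Gdf15 estimate was -0.70 without 6 h replicate 1, and without 24 h replicate 2 it was -2.85 with an edgeR adjusted p of 0.0491, the sole one of these to pass.

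**Figure D2:**
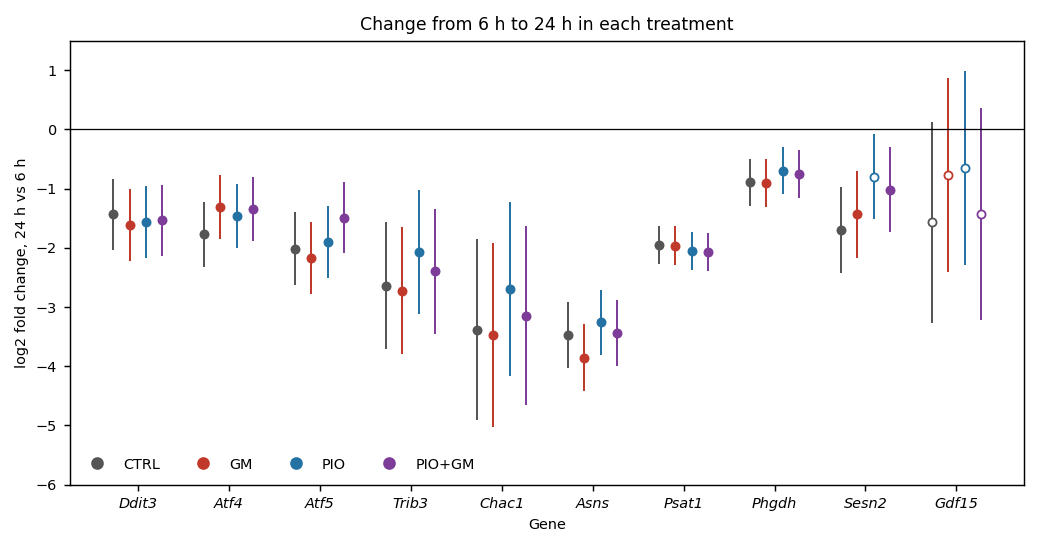
log2 fold change at 24 h against 6 h for each gene in each treatment, with bars for the 95% confidence interval, filled points for an edgeR adjusted p under 0.05 and open points otherwise. The estimates of Asns run from -3.86 in GM to -3.26 in PIO, and the 4 open points of Gdf15 together with that of Sesn2 in PIO are the ones that did not pass.

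Markers of other cell types moved between the times as well. The summed level of 5 Schwann cell markers had a median of 1123 CPM over the 12 libraries at 6 h (289 to 2438) and 332 at 24 h (183 to 680), and that of 4 neuron markers a median of 153 CPM (47.7 to 276) and 55.7 (28.1 to 170.4). Macrophage markers, 8 in all, went the other way, from a median of 49.0 CPM (43.6 to 104) to 92.2 (53.4 to 177), and 5 mesenchyme markers from 3073 (1963 to 4380) to 3385 (2152 to 5963). HC markers had medians of 645 and 757 CPM and supporting cell markers of 2631 and 3591. The olfactory and vomeronasal receptor sum had a median of 123 CPM (58.0 to 270.2) at 6 h and 75.4 (38.9 to 162) at 24 h. The part of these markers and reads in the fall of the 10 genes was not tested. Total time in culture, the age of the explants and the time since the drugs were added rise together here and cannot be told apart. Whether the medium was changed when the drugs were added is not given in the sources used here, so the time since fresh medium cannot be told apart from these either.

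Per base of transcript, the order of the genes also changed between the times. At 6 h the median RPKM (CPM divided by gene length in kilobases) was 241 for Atf4, 184.5 for Psat1 and 167 for Asns, whose ranges overlapped, and these 3 lay above Atf5 at 72.9, although the lowest library of Atf4, at 111, was the closest to the highest of Atf5, at 86.2. That lowest library of Atf4 lay below the highest of Ddit3, at 114.0, so Atf4 and Ddit3 overlapped. Atf5, Ddit3 (67.3), Phgdh (56.4), Chac1 (40.2), Trib3 (26.9), Sesn2 (20.4) and Gdf15 (5.27) followed, each overlapping the next. At 24 h Atf4 led alone at 82.1, above Psat1 at 42.6, and the remaining order was Phgdh 29.3, Ddit3 21.9, Atf5 17.5, Asns 12.9, Sesn2 8.62, Trib3 4.99, Chac1 3.13 and Gdf15 1.67, each overlapping the next. By these medians Asns moved from the third place to the sixth and Chac1 from the seventh to the ninth.

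Within groups, several genes scattered together. Over the 24 libraries, with each group mean removed, the 45 pairs of genes had a median Pearson r of 0.38. The highest was 0.91 for Trib3 with Chac1, followed by Chac1 with Sesn2 at 0.80 and Atf4 with Chac1 at 0.79, and the lowest was -0.27 for Ddit3 with Phgdh. Without PIO+GM 6 h replicate 3 the median was 0.31, and 8 pairs in place of 2 were below 0. Trib3 with Chac1 then had 0.88, Chac1 with Sesn2 0.72, Atf4 with Chac1 0.69 and Ddit3 with Phgdh -0.50. Chac1 with Asns, at 0.76, was then the next highest after Trib3 with Chac1. These are descriptions over libraries, in which the values of a pair come from the same RNA and depth. With the groups left in, where all points share the split by time, the genes with the highest Pearson r were Eif4ebp1, a translation repressor, for Trib3 (r = 0.985) and Chac1 (0.983), the cysteine transfer RNA synthetase Cars for Atf4 (0.983), the serine transfer RNA synthetase Sars for Atf5 (0.970), the last serine synthesis enzyme Psph for Psat1 (0.990) and the proline enzyme gene Pycrl for Phgdh (0.948). Asns was closest to Hspa9, a mitochondrial chaperone (0.990), Ddit3 to Phf10 (0.962), Sesn2 to Uhrf1bp1 (0.972) and Gdf15 to Fhdc1 (0.864).

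Most of the other pathway genes listed were lower at 24 h, but the list and its roles were chosen with earlier results of these data known. The counts are therefore a description and not a test of the pathway. Of 62 other genes of the integrated stress response, all tested, 50 were lower and 1 higher at 24 h in CTRL, 46 and 1 in GM, 45 and 0 in PIO, and 48 and 0 in PIO+GM, and 40 were lower in all 4 arms, 53 in at least 1 and 9 in none. Over all genes tested the percentage called lower at 24 h was 13.2 in CTRL, 11.7 in GM, 15.8 in PIO and 17 in PIO+GM. The percentage called higher was 14.8 in CTRL, 12.5 in GM, 13.2 in PIO and 17.6 in PIO+GM. The shares of all genes lower in every arm, or in any arm, were not counted, so those counts have no background here. The median log2 fold changes of the 62 genes were -1.34, -1.19, -1.26 and -1.34 in the same order. All 9 amino acid transporters and all 5 enzymes of serine, glycine and one-carbon metabolism were lower in each arm, as were 12 of 12 aminoacyl-tRNA synthetases in CTRL, GM and PIO and 11 of 12 in PIO+GM. Among the 6 genes with the lowest estimates in at least 1 arm were Fgf21, a secreted metabolic hormone (-3.45 in CTRL, -3.80 in GM, -3.74 in PIO and -3.33 in PIO+GM), Mthfd2, a mitochondrial folate enzyme (-3.22 in CTRL, -3.42 in GM, -3.05 in PIO and -3.33 in PIO+GM), Cth, which makes cysteine (-2.64 in CTRL, -2.59 in GM, -3.26 in PIO and -3.51 in PIO+GM), and the transporters Slc7a3 (-2.95 in CTRL, -3.13 in GM, -2.60 in PIO and -2.54 in PIO+GM), Slc7a1 (-2.81 in CTRL, -2.67 in GM, -2.38 in PIO and -2.99 in PIO+GM) and Slc7a11 (-2.08 in CTRL, -2.18 in GM, -3.46 in PIO and -3.74 in PIO+GM). Slc7a11 was among those 6 in PIO and PIO+GM and not in CTRL or GM, though it was lower in each arm. None of the 62 genes, and no other gene tested, passed the edgeR test of whether the effect of PIO changed with time. The lowest edgeR adjusted p among the 62 was 0.898 without GM and 0.843 in its presence. Eif4ebp1, among them in CTRL, was at -2.67 in CTRL, -2.50 in GM, -2.14 in PIO and -2.27 in PIO+GM, and the transporter Slc7a5, which takes up large neutral amino acids and was among them in GM and PIO+GM, at -2.60 in CTRL, -2.61 in GM, -2.34 in PIO and -2.65 in PIO+GM. Slc7a3 and Slc7a1 carry cationic amino acids and Slc7a11 carries cystine. Ddit4l, an mTORC1 inhibitor and named after its values were seen, was the gene that was higher, at a log2 fold change of 0.96 in CTRL and 0.91 in GM (edgeR adjusted p 0.0285 and 0.0400).

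The 10 genes for phosphatase, eIF2 and eIF2B subunits had smaller changes, with 9 lower in CTRL, 7 in GM, 5 in PIO and 7 in PIO+GM and medians of -0.60, -0.47, -0.48 and -0.56. At the head of the pathway, of the 4 eIF2α kinase genes, none passed in CTRL, GM or PIO, with medians of 0.08, -0.12 and -0.02, and in PIO+GM the RNA-sensing kinase Eif2ak2 passed at -0.74 (edgeR adjusted p 0.00181). Of the others, named after their values were seen, Eif2ak4, the sensor of uncharged transfer RNA, had estimates of -0.12 in CTRL, -0.15 in GM, 0.09 in PIO and -0.08 in PIO+GM, and Eif2ak3, the sensor in the endoplasmic reticulum, 0.30 in CTRL, 0.27 in GM, 0.18 in PIO and 0.19 in PIO+GM. Chaperones and other targets of the other branches of the unfolded protein response, XBP1 and ATF6, were counted beside them: of 15 such genes 1 was lower and 1 higher in CTRL, 2 and 2 in GM, 7 and 0 in PIO and 4 and 1 in PIO+GM, with median log2 fold changes of -0.07, -0.15, -0.28 and -0.21. In CTRL and GM these shares were near or under those of all genes, and the counts moved with the fit: 3 were lower in CTRL by DESeq2, and in PIO 3 were lower without a filter or with only those groups in the fit. Hspa5, the main endoplasmic reticulum chaperone and named here after its values were seen, had estimates of -0.20 in CTRL, -0.20 in GM, -0.68 in PIO and -0.60 in PIO+GM, the last 2 past the threshold (edgeR adjusted p 0.0121 and 0.0197). None of the 15 genes passed in a drug comparison at either time by edgeR. No gene tested passed the edgeR test of whether the effect of PIO changed with time. Counts are given beside each other with no test of the lists against each other.

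**Figure D3:**
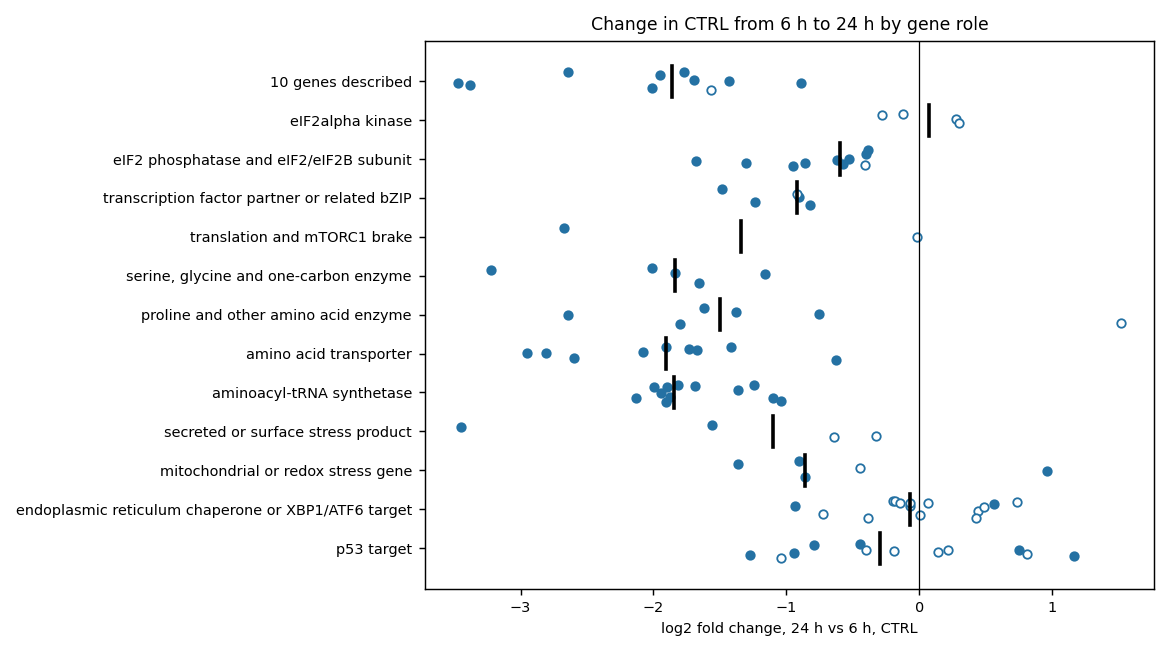
log2 fold change in CTRL at 24 h against 6 h, with 1 point per gene, filled where the edgeR adjusted p was under 0.05, grouped by role, and a black bar at the median of each role. The 9 amino acid transporters and 12 aminoacyl-tRNA synthetases lie entirely left of 0, while the 4 eIF2α kinases and the 15 chaperone genes lie around it, with medians of 0.08 and -0.07.

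The drugs were then compared at each time, to ask whether gentamicin raised these genes or pioglitazone changed them. None of the 10 genes passed the test in any of the 8 comparisons by edgeR, and none did by DESeq2. The percentage of all genes called was 0 for GM against CTRL at 6 h and 0.0123 at 24 h, 0.337 and 0.153 for PIO against CTRL, 1.32 and 0.11 for PIO+GM against GM, and 0 and 0.0735 for PIO+GM against PIO, and these numbers depended on the fit and on single libraries. In PIO+GM against GM at 6 h, 216 genes were called, 1216 by DESeq2, 1990 with the replicate number as a block and 8 without PIO+GM 6 h replicate 3. With the replicate number as a block, in the 24 h comparisons where the numbers paired the libraries, 12 genes in place of 2 were called for GM against CTRL and 241 in place of 25 for PIO against CTRL and 18 in place of 12 for PIO+GM against PIO, with none of the 10 among them. At an unadjusted p under 0.05 there was 1 of the 10 in 1 comparison, Atf5 in PIO+GM against GM at 6 h, where 25% of all genes had such a p. In the other comparisons the percentage of all genes with such a p was 1.49 and 1.67 for GM against CTRL at 6 and 24 h, 15.2 and 9.93 for PIO against CTRL, 7.47 for PIO+GM against GM at 24 h, and 3.06 and 2.59 for PIO+GM against PIO at 6 and 24 h. Where 0 of all genes were called, 243 in GM against CTRL and 500 in PIO+GM against PIO had an unadjusted p under 0.05 at 6 h, and DESeq2 called 0 and 1.

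GM against CTRL gave no rise of the programme that the libraries could resolve. At 6 h Ddit3 differed by -0.12 (95% interval -0.71 to 0.46), Atf4 by -0.20 (95% interval -0.73 to 0.33) and Chac1 by -0.57 (95% interval -1.93 to 0.78) on the log2 scale. At 24 h the estimates were -0.30 (95% interval -0.90 to 0.30) for Ddit3, 0.26 (95% interval -0.27 to 0.80) for Atf4 and -0.66 (95% interval -2.20 to 0.88) for Chac1. Atf4 was at 142, 119.7 and 121 CPM in CTRL and at 145, 144 and 169 in GM at 24 h, so the groups just separated, but the edgeR p was 0.321 before adjustment. The serine enzymes were bounded most tightly, Psat1 at 0.03 (95% interval -0.28 to 0.34) at 6 h and 0.02 (95% interval -0.30 to 0.33) at 24 h, whereas for Gdf15 the interval at 24 h ran from -1.05 to 2.37. A change of the size that Psat1 showed with time in CTRL, -1.95, lay outside the interval of every gene but Chac1 and Gdf15 in all 8 drug comparisons.

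With pioglitazone, Sesn2 and Asns had the lowest p-values against CTRL. Sesn2 at 6 h was at 56.9, 75.7 and 83.8 CPM in CTRL and 56.3, 38.2 and 48.5 in PIO, so the groups did not overlap, with an estimate of -0.60 (95% interval -1.31 to 0.11) and an edgeR adjusted p of 0.417. Asns at 24 h was at 31.6, 26.5 and 19.2 CPM in CTRL and 20.5, 35.4 and 47.5 in PIO, with 0.42 (95% interval -0.10 to 0.93) and an adjusted p of 0.615. In the presence of gentamicin, the 24 h estimate for Asns was 0.48 (95% interval -0.04 to 1.00), with an adjusted p from edgeR of 0.721. Of the 80 pairs of gene and comparison, 3 had groups that did not overlap, Atf4 and Sesn2 as given and Phgdh in PIO+GM against PIO at 24 h, where the estimate was -0.25 (95% interval -0.65 to 0.15). The percentage of all genes whose groups did not overlap was 5.23 at 6 h and 5.66 at 24 h for GM against CTRL, 15.4 and 22.3 for PIO against CTRL, 23 and 18.4 for PIO+GM against GM, and 3.38 and 8.81 for PIO+GM against PIO. Over these comparisons together 12.8% of such pairs did not overlap, so the 3 pairs are not a result about these genes.

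Atf5 in PIO+GM against GM at 6 h was the closest to a call. Its values were 172, 140.2 and 162 CPM in GM and 142, 92.4 and 74.1 in PIO+GM, which overlap through PIO+GM replicate 1. The estimate was -0.62 (95% interval -1.21 to -0.03), with a p of 0.0402 and an adjusted p of 0.179 by edgeR. Without PIO+GM 6 h replicate 1 it was -0.91 with an adjusted p of 0.0349, but the number of all genes called then rose from 216 to 4040. Without replicate 3, the library that stands apart, it was -0.43 with an adjusted p of 0.501. No other drug comparison gained a call among the 10 genes on leaving out 1 library. The other estimates of PIO+GM against GM at 6 h also moved without PIO+GM 6 h replicate 3. Chac1 went from 0.27 to 0.74, Ddit3 from 0.26 to 0.51, Atf4 from -0.03 to 0.29, Trib3 from -0.15 to 0.22, Sesn2 from -0.15 to 0.25 and Gdf15 from -0.62 to -0.29, and the median of the 10 genes from -0.09 to 0.17, with 0.394 as the lowest edgeR adjusted p. In PIO+GM against PIO at 6 h, leaving it out took Chac1 from 0.12 to 0.59, Trib3 from 0.13 to 0.50, Sesn2 from 0.02 to 0.42 and the median from -0.02 to 0.15, with an edgeR adjusted p of 0.999 for all 10. Other libraries moved the medians the other way. With each library left out in turn, the median at 6 h ran from -0.35 to 0.17 against GM and from -0.28 to 0.15 against PIO. For Atf5, the estimate of PIO+GM against GM at 24 h was 0.07 (95% interval -0.53 to 0.66). Its difference between the times was 0.68 (95% interval -0.15 to 1.52), with an edgeR adjusted p of 0.843.

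**Figure D4:**
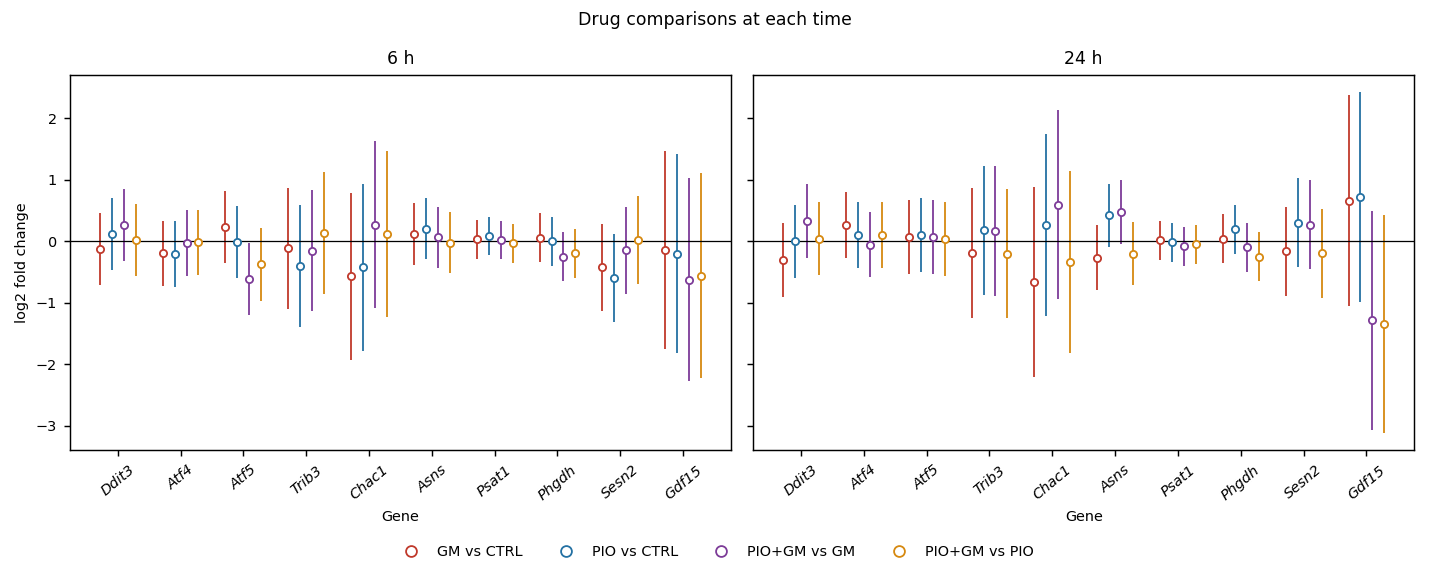
log2 fold change of each gene in the 4 drug comparisons at 6 h and at 24 h, with bars for the 95% confidence interval and open points, as none reached an edgeR adjusted p of 0.05. The intervals of Psat1 stay within -0.40 and 0.40, and those of Gdf15 reach from -3.12 to 2.43.

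Nor did the other pathway genes pass under the drugs. None of the 62 passed in any of the 8 comparisons by edgeR's quasi-likelihood test. At an unadjusted p under 0.05 there were 9 in PIO+GM against GM at 6 h, where 25% of all genes had such a p, DESeq2 called 2 and the fit with a replicate block called 5, and between 0 and 2 in each of the other comparisons, in which DESeq2 called none. For each gene, whether the effect of pioglitazone depended on gentamicin at either time, and whether the effects of GM, of PIO and of PIO in the presence of GM depended on time, was tested with 5 interactions. A change with time in the effect of GM in the presence of PIO was not tested. None of the 10 genes passed in any of them, the percentage of all genes called was 0 in each, and the lowest unadjusted p among the 50 tests was 0.0795, for Sesn2 in the effect of PIO at 24 h less that at 6 h. DESeq2 likewise called none of the 10 in the interactions. Between 125 and 714 of all genes had an unadjusted p under 0.05 in the 5 interactions, and DESeq2 called 1 in each of the interactions of PIO with time and 0 in the others.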

How the data were processed

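RNA of 24 libraries of OC explants was sequenced as stranded total RNA with single 76-base reads. The deposited values are raw counts: the authors mapped reads with STAR to the mouse genome (mm10) and counted, with QuasR, reads starting in any RefSeq exon of a gene. Handling of strand and of reads with several matches is not given in the sources used here, so antisense overlap and pseudogene copies could shift counts of Atf5 and Phgdh. The deposited gene length, which the authors give as another column, served for RPKM only.

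Entrez identifiers were matched to RefSeq symbols for 24374 of 24454 rows. edgeR 4.0.16 in R 4.3.3 kept 16317 genes (filterByExpr by group), scaled libraries by TMM, fitted a mean for each of 8 groups over all 24 libraries and tested contrasts by quasi-likelihood with Benjamini-Hochberg adjustment over all genes (threshold 0.05). The script was tested on simulated counts. CPM used effective library sizes, and log2 CPM a prior count of 2. The 10 genes, the other lists and their roles were chosen with earlier results of these data known. All 10 genes are given with values, and of the other pathway genes at most 6 per comparison are named, those past the threshold with the largest absolute log2 fold change, with exceptions stated. For likeness, genes with a mean log2 CPM of at least 3 were ranked by Pearson r.

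Replicate numbers come from the labels. Libraries with the same number correlated above 0.1 in all 3 pairs only in GM against CTRL, PIO against CTRL and PIO+GM against PIO at 24 h, and 16 of 36 pairs were at or under 0.1. Replicates differed by 10.2 to 77.8 in chi-square per degree of freedom, so none was a repeated deposit. Alternatives were a replicate block, no TMM factors, no filter, at least 10 counts in every library, the edgeR likelihood ratio test, DESeq2 1.42.0, fits of only the compared groups, a prior count of 0.5 and each library left out.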

Additional observations from a re-analysis of the deposited data

How the results depend on the processing

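No estimate of the 10 genes that passed the test changed sign under any alternative run. The number of the 10 genes past the threshold stayed at 9, 9, 8 and 9 for time in CTRL, GM, PIO and PIO+GM with the replicate block, without TMM factors, without a filter, with the likelihood ratio test and with DESeq2, which changed none of 170 calls each. On leaving out 1 library it ranged from 9 to 9, 9 to 9, 8 to 8 and 8 to 9, and in PIO+GM against GM at 6 h from 0 to 1. A filter of at least 10 counts in every library removed Gdf15. Fits of only the compared groups, not possible for the interactions, brought calls of Gdf15 in CTRL (adjusted p 0.0358) and Sesn2 in PIO (0.0449) and lost Sesn2 in PIO+GM (0.111). The cause was not tested. The prior count of 0.5 moved mean log2 CPM of the genes by less than the spread between libraries.

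The numbers of all genes called by the drugs depended on the fit. The replicate block gave 371 in place of 55 for PIO against CTRL at 6 h, 1990 in place of 216 for PIO+GM against GM at 6 h and 98 in place of 18 at 24 h, where the numbers did not pair all libraries, and 18 in place of 12 for PIO+GM against PIO at 24 h, where they did. DESeq2 gave 15, 341, 162, 1216, 102 and 35 for GM against CTRL at 24 h, PIO against CTRL at 6 and 24 h, PIO+GM against GM at 6 and 24 h and PIO+GM against PIO at 24 h. The likelihood ratio test gave 24, 212, 148, 670, 72 and 56 in the same order, and fits of only the compared groups 0, 0, 8, 0, 3 and 0. Without a filter there were 22, 16, 75 and 20 for PIO against CTRL at 6 and 24 h, PIO+GM against GM at 6 h and PIO+GM against PIO at 24 h, and with at least 10 counts 0, 95, 350 and 1 for GM against CTRL at 24 h, PIO against CTRL and PIO+GM against GM at 6 h and PIO+GM against PIO at 24 h. For time in PIO, fitting only those groups gave 1540 in place of 4731. No setting here but the omission of PIO+GM 6 h replicate 1 brought one of the 10 genes past the threshold in a drug comparison. With 3 libraries a group, the intervals of Chac1 and Gdf15 stayed wide.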

Other observations

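Targets of p53 were counted as well, since Sesn2 and Gdf15 also respond to that factor. Of 12 such genes, 4 were lower and 2 higher at 24 h in CTRL, 2 and 1 in GM, 2 and 2 in PIO, and 2 and 2 in PIO+GM, with median log2 fold changes of -0.29, -0.26, -0.18 and -0.29. Of all genes tested, 13.2% were lower and 14.8% higher in CTRL and 11.7% and 12.5% in GM, and the count of p53 targets lower in GM was 5 by DESeq2 and with a replicate block and 1 without a filter. In PIO+GM 4 were lower without PIO+GM 6 h replicate 3 and 0 with only those groups in the fit. Cdkn1a, which halts the cell cycle, was at -1.27 in CTRL, -1.08 in GM, -0.90 in PIO and -0.83 in PIO+GM, and Sesn1, the relative of Sesn2, at 1.17 in CTRL, 1.20 in GM, 0.80 in PIO and 0.83 in PIO+GM. Both genes were named after their values were seen. None of the 12 passed in a drug comparison by edgeR's quasi-likelihood test. At an unadjusted p under 0.05 there were 4 in PIO against CTRL at 6 h, 4 in PIO+GM against GM at 6 h and 1 in PIO+GM against GM at 24 h, where 15.2%, 25% and 7.47% of all genes had such a p. In PIO+GM against GM at 6 h, DESeq2 called 2 lower, edgeR's likelihood ratio test called 1 lower, and the fit with a replicate block called 1 higher and 2 lower, and in PIO against CTRL at 6 h that fit called 1 higher. None of the 15 chaperone genes passed in a drug comparison by edgeR or by DESeq2, with 1 at an unadjusted p under 0.05 in each of PIO against CTRL at 24 h and PIO+GM against GM at 6 h.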
